A study of Mus musculus with 2 samples.

Results

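The genes described here encode potassium channels and their partner subunits. They were taken as every non-control spot whose gene name in the scanner files is Kcn followed by letters and an optional number. The rule gave 93 genes, on 140 of 55676 distinct probes and 167 of 59305 non-control spots; all genes on the array came to 35017. The RNA, from cells that the labels call GT1-7 (mouse hypothalamic neurons immortalised as a line), was measured on 2 Agilent arrays of 1 colour (Cy3). The vehicle group was 1 array of cells given DMSO for 30 min, and the GnRH group was 1 array of cells given 50 nM gonadotropin-releasing hormone (GnRH) for 30 min, both grown in DMEM with 10% serum and gentamicin. The free-text description of both samples names 100 nM bradykinin and the A549 line instead, and the groups follow the treatment labels.

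Potassium channels let potassium leave a cell or, for the inward rectifiers, hold the resting potential, and so they set how readily a neuron or endocrine cell fires. The GnRH receptor couples through Gq to phospholipase C. The phosphoinositide breakdown and calcium release that follow are known to close M-channels (Kcnq) and to open calcium-activated channels (Kcnma1, Kcnn), without any change in the channels' transcripts. In gonadotropes, calcium-activated SK channels are known for the rhythmic hyperpolarisations that GnRH evokes.

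Immediate-early genes served as a check that the cells of the GnRH array had been stimulated. They respond to many stimuli, so this check cannot tell which agent was given. Their list was chosen with earlier results of these data known. The 8 immediate-early genes listed for this check were all at least 2-fold higher in the GnRH array, with a median log2 difference (GnRH minus vehicle) of 4.55 and a lowest of 2.27. Of 10 general neuron markers, 8 were well above the scanner's background on both arrays, among them Snap25, Syp and Tubb3, while Stmn2 was on neither and Rbfox3 on the GnRH array only. Of the 7 GnRH neuron markers, Gnrh1, Six6, Nhlh2 and Hesx1 were on neither array. Kiss1r (0.03 ± 0.22), Otx2 (80.2 and 53.2, -0.59 ± 0.23) and Dlx5 (21.7 and 33.4, 0.62 ± 0.37) were on both, and Otx2 and Dlx5 passed 1.5-fold in opposite directions. Of the 12 gonadotrope and pituitary markers 6 were on both, among them Cga and Gnrhr. From vehicle to GnRH the summed signal went from 101767 to 102194 for neurons, from 212 to 201 for GnRH neurons and from 182283 to 171917 for gonadotropes and pituitary. Of the markers of astrocytes 3 of 6 were on both arrays, of oligodendrocytes 4 of 6, and of microglia and macrophages 4 of 6. For fibroblasts and endothelium it was 3 of 7. Among all genes the share was 60.6%. The part of other cells in the results was not tested, and the cells are named here only by their label. With 1 array per group no test was possible, no difference has a replicate check, and every value below describes these 2 arrays.

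Of the 93 genes, 48 (51.6%) were well above background on both arrays with the same probe, which is called measured here. A further 4 were above it on the GnRH array only and 2 on the vehicle array only, and 39 were on neither array. Among all 35017 genes 60.6% were measured, among the 20660 genes with a RefSeq symbol 68.2%, and among 61 genes of calcium, sodium, HCN and TRP channels 65.6%. In bulk RNA such as this, fewer cells that express a gene and less RNA per cell cannot be told apart. Measured members were unevenly spread over the subfamilies. All 3 Kcnd and both Kcnt genes were measured, as were Kcnma1 and Kcnu1. By contrast 4 of 15 inward rectifier genes (Kcnj) and 1 of 4 Kcne genes were measured, and 0 of 3 Kcns genes.

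**Figure D1:**
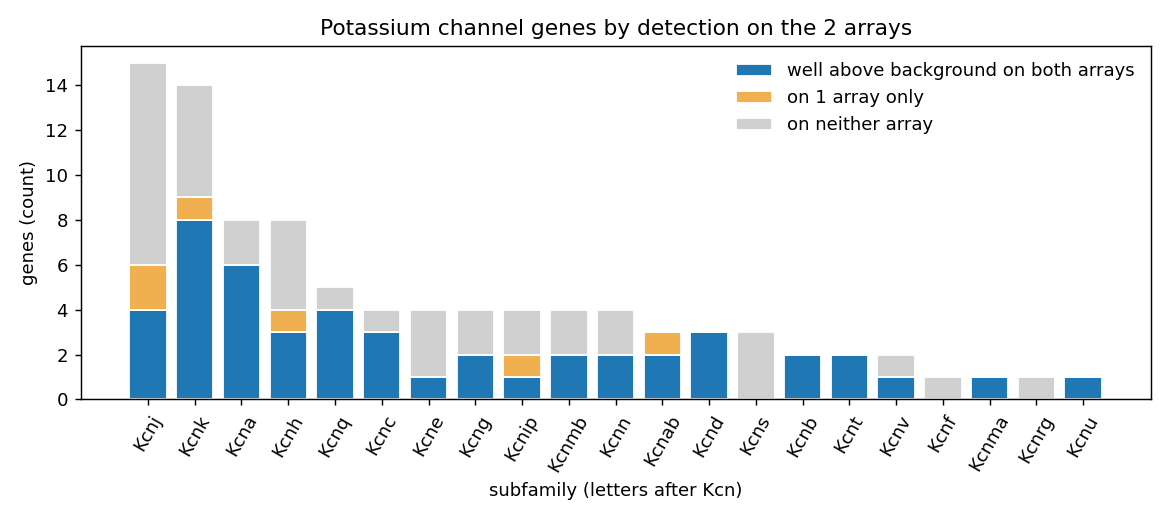
Number of potassium channel genes (y axis) in each subfamily (x axis) that were well above background on both arrays, on 1 array only or on neither. The Kcnj bar is the tallest, with 15 genes of which 4 were measured, and the Kcnk bar has 14 genes of which 8 were.

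Of the 48 measured genes, 14 had another probe that was not above background on both arrays. Probes of a gene could also differ in sign, so the start of several probes is shown. Each probe is 60 bases long and is given by its first 30, 5′ to 3′ as in the scanner files, with the mm9 position of the whole probe. Whether a probe lies in a coding or an untranslated exon was not analysed here, for lack of gene models in that build. All 3 probes of the BK pore gene Kcnma1 were measured, as were both of Kcnq1 and both of Kcnip3. Of the Kcnd1 probes the first 2 were measured and the last was above background on the vehicle array only. The Kcnq1 probes overlap by 51 bases, and the capitals mark the 21 shown bases that they share.
Kcnma1, chr14:24126279-24126338, minus strand: tgggtgggcagtcaatgtatacatgtaaat
Kcnma1, chr14:24118701-24118760, minus strand: agattccttgatgcacatttctcttctttc
Kcnma1, chr14:24130916-24130975, minus strand: tggtgatctgttctgcaaagctctgaaaac
Kcnq1, chr7:150612887-150612946, plus strand: aatttcgtaGTATGATCTTGATTGAGAGAC
Kcnq1, chr7:150612896-150612955, plus strand: GTATGATCTTGATTGAGAGACttttccaaa
Kcnip3, chr2:127282242-127282301, minus strand: tggttcctgtctcagcgcccaccaatattc
Kcnip3, chr2:127307742-127307801, minus strand: gtgctgctgttcattgccgtcctcaagcag
Kcnd1, chrX:7413570-7413629, plus strand: aactccagcttgggtactccgtgcctcctc
Kcnd1, chrX:7400644-7400703, plus strand: tagaatcatctcagactttctagacctgag
Kcnd1, chrX:7415303-7415362, plus strand: accaatcttggattcagatcgacacatttt

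The central comparison asked whether channel transcripts differed after 30 min of GnRH. None of the 48 measured members reached 2-fold in either direction, beside 0.311% of all 21219 measured genes that were at least 2-fold higher and 0.132% that were at least 2-fold lower. None reached 1.5-fold either, beside 1.19% of all measured genes higher and 0.881% lower. These shares are so small that 0 of 48 lies near the background. The median log2 difference of the members was 0.01, with 24 above 0 and 24 below, and the median over all measured genes was -0.01. The lowest was -0.33 (Kcnj14) and the highest 0.51 (Kcnj3). Within 1.2-fold lay 43 members (89.6%), against 88.2% of all measured genes and 91.7% of the 14084 measured genes with a RefSeq symbol.

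**Figure D2:**
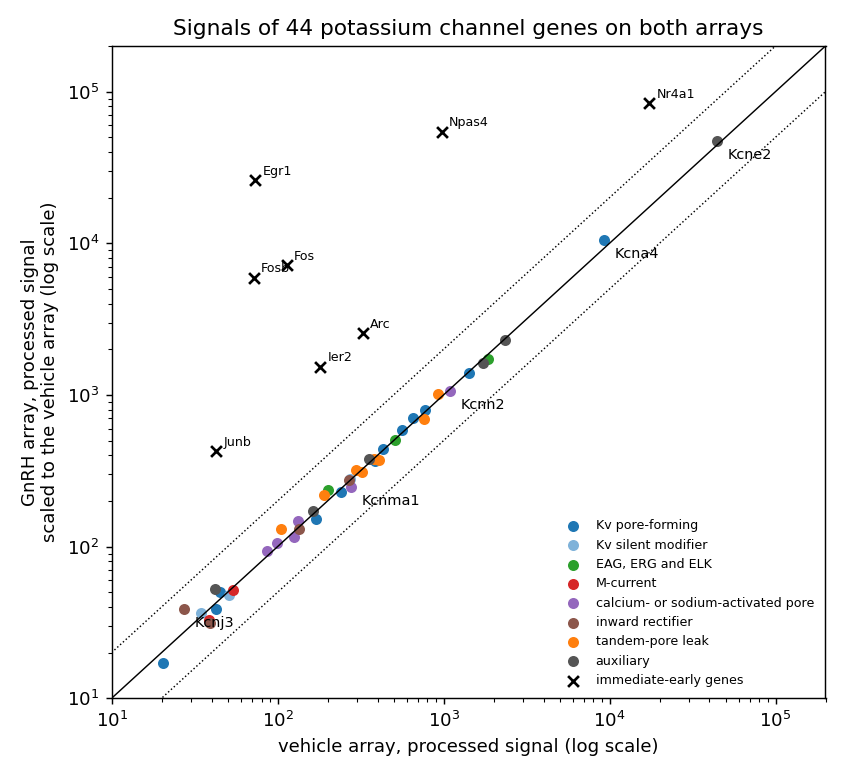
Processed signal of 44 of the 48 measured potassium channel genes on the vehicle array (x axis) and on the GnRH array, scaled to the vehicle array (y axis), both on log scales; colours give roles, crosses are immediate-early genes, the solid line is equality and the dotted lines are 2-fold. All 44 points lie between the dotted lines and all 8 crosses lie above them.

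The signals below are processed intensities, background-subtracted by the scanner software, with those of the GnRH array multiplied by 1.07 to equalise the arrays' 75th percentiles. Signals of different probes are not compared, since probes differ in how well they bind. The error after ± is the scanner software's own, combined over both arrays, and it does not include variation between cultures. It holds a fixed share of the signal (0.1), so for bright probes of 1 spot it is near 0.20 and is not a measured spread. Over all measured genes with a mean signal of 600 or more, the median error was 0.20 and the median size of difference 0.05.

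The pore-forming voltage-gated (Kv) genes had 14 of 17 members measured and a median difference of 0.03. Kcna4, whose product carries a fast inactivating A-type current, went from a signal of 9270 with vehicle to 10567 with GnRH (log2 difference 0.19 ± 0.20). Kcna6, a Shaker-type delayed rectifier gene, was at 775 and 791 (0.03 ± 0.20). Its other 2 probes were on neither array. The A-type genes of the Kcnd subfamily stood at 1429 and 1403 for Kcnd1 (-0.03 ± 0.20) and at 657 and 701 for Kcnd2 (0.09 ± 0.20). Each of these differences lay within the scanner error, which is wide at such signals and does not show that the arrays were equal. That of Kcna4 ran from 0.16 (scaled to the median) to 0.20 (normexp) under the alternatives.

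A further Kcnd1 probe (X, 7415303 to 7415362) was above background on the vehicle array only, at 26.7 against 13.3 in the GnRH array. Its difference of -1.01 ± 0.49 was not seen on the gene's 2 measured probes, at -0.03 and 0.17. Kcna3, at 20.4 and 17.1, gave -0.26 ± 0.40, which turned to 0.03 with normexp and 0.02 with no background correction, and the delayed rectifier gene Kcnb2, at 170 and 152, gave -0.16 ± 0.21. Both lay within the scanner error. Kcna5, Kcna7, Kcna10, Kcnc1, Kcnc4 and Kcnd3 were measured as well, between -0.14 and 0.15. A second measured Kcna7 probe was at 111 and 132 (0.25 ± 0.22), beyond the error and opposite in sign to the -0.06 of the probe used. Kcna1, Kcna2 and Kcnc2 were on neither array.

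The silent Kv subunits, which form no channel alone and modify other Kv subunits, had 3 of 10 members measured: Kcng2 (0.03), Kcng4 (-0.09) and Kcnv2 (0.07). Kcnf1, Kcng1, Kcng3, Kcns1, Kcns2, Kcns3 and Kcnv1 were on neither array. Of the ether-a-go-go family, 3 of 8 genes were measured. The ELK-type genes Kcnh4, at 1856 and 1714, and Kcnh3, at 202 and 238, differed by -0.12 ± 0.20 and 0.24 ± 0.21. The ERG gene Kcnh2, known for cardiac repolarisation and for setting the firing of pituitary cells, was at 511 and 501 (-0.03 ± 0.20). Kcnh6 was above background on the GnRH array only, at 13.9 and 19.4. Kcnh1, Kcnh5, Kcnh7 and Kcnh8 were on neither array.

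Of the M-channel genes, Kcnq1 was at 53.9 and 51.5 on the upstream of its overlapping probes (-0.06 ± 0.24). The downstream probe was at 38.7 and 44.9 (0.21 ± 0.29). These probes, which share most of their bases, thus lay on opposite sides of 0, and both were within the scanner error. Kcnq5, a subunit of neuronal M-channels, was at 38.7 and 32.9 (-0.23 ± 0.29), also within the error, and at -0.04 with normexp. Its other 2 probes were on neither array. Kcnq3, which joins other subunits in the neuronal M-channel, was on neither array with its only probe.

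The group of calcium- or sodium-activated pore genes had 6 of 8 genes measured, with differences between -0.16 and 0.14. Kcnu1 was placed in this group by its family, not by gating through calcium or sodium. Kcnma1, the BK channel gene, was at 276 and 246 on the probe with the highest signal (-0.16 ± 0.21). Its other probes were at 221 and 221 (0.00 ± 0.21) and at 52.8 and 60.7 (0.20 ± 0.23), so they lay on both sides of 0 and all were within the scanner error. Kcnn2, an SK gene, was printed 10 times and is the most closely measured member. Its spots ran from 1036 to 1173 in the vehicle array (median 1105) and from 950 to 1135 in the GnRH array (median 1073), and these ranges overlapped. The difference was -0.05 ± 0.08 (SD over 10 spots, which share 1 RNA sample per array), below 0 in 7 spots and above in 3. Kcnn3 (0.11), the sodium-activated Kcnt1 (-0.11) and Kcnt2 (0.10), and Kcnu1 (0.14), known from sperm, were also measured. The SK gene Kcnn1 and the intermediate-conductance gene Kcnn4 were on neither array.

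The inward rectifiers had the widest spread of the 8 roles, with an SD of 0.35 over 4 measured genes of 15. Kcnj3 and Kcnj14, which lay furthest from 0, had mean signals below 50, where the SD over all genes was 0.34. Kcnj3, a G-protein-gated (GIRK) subunit gene, was at 27.3 and 38.8, a difference of 0.51 ± 0.30. It was 0.26 with normexp, 0.23 with no background correction and 0.31 as the mean over both measured probes. Its second measured probe was at 28.8 and 31.2 (0.12 ± 0.34). Kcnj14 was at 39.4 and 31.3 (-0.33 ± 0.29), moving to -0.11 with normexp and to -0.04 with no background correction. Its other probe was on neither array, at 6.37 and 3.53. Kcnj4 (0.04) and the GIRK gene Kcnj9 (-0.05) were measured too. The GIRK gene Kcnj6 was printed 10 times, and 3 of its spots were above background with vehicle and 6 with GnRH. Its spots ran from 13.5 to 21.5 and from 13.5 to 27.2, ranges that overlapped, with a difference of 0.13 ± 0.30 (SD over 10 spots). Kcnj15 was above background on the vehicle array only, at 22.1 and 14.0. The 9 inward rectifier genes on neither array were Kcnj1, Kcnj2, Kcnj5, Kcnj8, Kcnj10, Kcnj11, Kcnj12, Kcnj13 and Kcnj16. Kcnj11 encodes the pore of the KATP channel of neuroendocrine cells, whose sulphonylurea receptor gene Abcc8 was measured at 2142 and 1910 (-0.17 ± 0.20).

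The tandem-pore genes (Kcnk), which carry background leak currents, had 8 of 14 members measured and a median of 0.05. Kcnk1 was at 929 and 1021 (0.14 ± 0.20), and the mechanosensitive channel gene Kcnk4 at 760 and 692 (-0.14 ± 0.20). Kcnk16 was at 105 and 131 (0.31 ± 0.22), and the acid-sensitive channel gene Kcnk3 at 190 and 219 (0.21 ± 0.21). Both of these exceeded the scanner error, Kcnk3 only just. Kcnk15 gave -0.14 ± 0.20 at 409 and 370 (chr2:163684978-163685037). On a probe close by (chr2:163684551-163684610) it gave 0.27 ± 0.21 at 142 and 171, the opposite sign and beyond the error. Kcnk10, Kcnk12 and Kcnk13 lay between -0.05 and 0.12. Kcnk9 was above background on the vehicle array only, at 23.2 and 19.1, and Kcnk2, Kcnk5, Kcnk6, Kcnk7 and Kcnk18 were on neither array.

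The auxiliary genes had 6 of 16 members measured and a median of 0.09. Kcne2, a small membrane subunit that associates with Kcnq1 and other pores, was at 44523 and 47272 (0.09 ± 0.20), while Kcne1, Kcne3 and Kcne4 were on neither array. Kcnip3, a calcium-binding protein that modifies Kcnd channels and also represses transcription under the name DREAM, was at 2339 and 2317 (-0.01 ± 0.20). Its second measured probe, shown above, was at 33.4 and 23.8 (-0.49 ± 0.34). Kcnip2 was above background on the GnRH array only, at 9.57 and 22.6, and Kcnip1 and Kcnip4 were on neither array. The neuronal BK beta subunit gene Kcnmb4 was at 1719 and 1612 (-0.09 ± 0.20), and on another probe at 181 and 210 (0.22 ± 0.21), the opposite sign and just beyond the error. Kcnmb2 gave 0.09 ± 0.21 at 358 and 379, and -0.16 ± 0.24 on a second measured probe at 63.1 and 56.3, both within the error. Kcnmb1 and Kcnmb3 were on neither array. Of the Kv beta genes, Kcnab1 was at 42.2 and 52.5 (0.31 ± 0.25, and 0.17 with normexp), Kcnab3 gave 0.09, and Kcnab2 was above background on the GnRH array only, at 8.34 and 18.7. The regulator gene Kcnrg was on neither array.

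**Figure D3:**
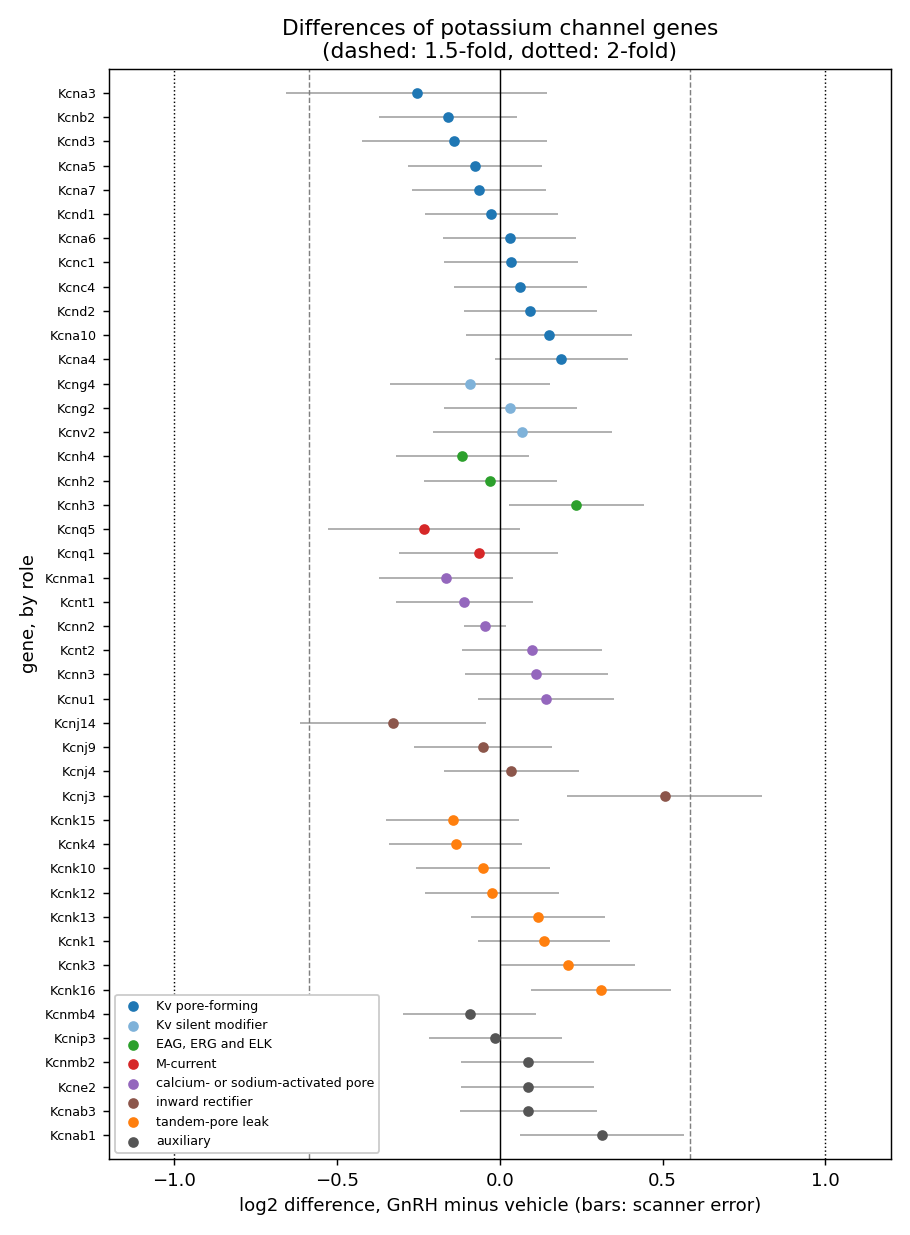
Log2 difference, GnRH minus vehicle (x axis), of 44 of the 48 measured genes grouped by role (y axis); bars are the scanner error, dashed lines 1.5-fold and dotted lines 2-fold. Every point lies inside the dashed lines, from -0.33 for Kcnj14 to 0.51 for Kcnj3.

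For the 6 genes above background on 1 array only, a lower bound of the fold was taken. It compares the bright signal with the gene's own signal on the dim array or, if higher, with the faintest signal there that still passed as well above background. The bound was at least 1.47-fold for Kcnj15 (higher in vehicle) and at least 1.39-fold for Kcnip2 (higher in GnRH). For Kcnk9, Kcnh6, Kcnab2 and Kcnj6 it was between 1.09-fold and 1.21-fold. No bound reached 2-fold. With normexp background correction the highest of the 6 bounds was 1.13-fold and the lowest was under 1, which leaves that gene with no bound. The 51 probes of the 39 genes on neither array had vehicle signals from 3.24 to 21.3 (median 4.19) and GnRH signals from 2.97 to 18.7 (median 4.07). At this depth of signal neither their presence nor a difference could be measured.

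Differences exceeded the scanner error in 7 of 48 members (14.6%), against 14.1% of all measured genes. Among them were Kcnj3, Kcnab1, Kcnk16, Kcnh3, Kcnk3 and Kcnj14, with vehicle signals from 27.3 to 202. The spread of the differences shrank as the signal rose; the SDs over all genes also hold the genes that moved far. Below a mean signal of 50 the 9 members had an SD of 0.28 and all genes 0.34. From 50 to 200 the values were 0.18 for 10 members and 0.31 for all genes. At 600 and above they were 0.10 for 13 members and 0.18 for all genes. No member spot lay in the 3 areas of the array where neighbouring spots of unrelated genes differed together.

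**Figure D4:**
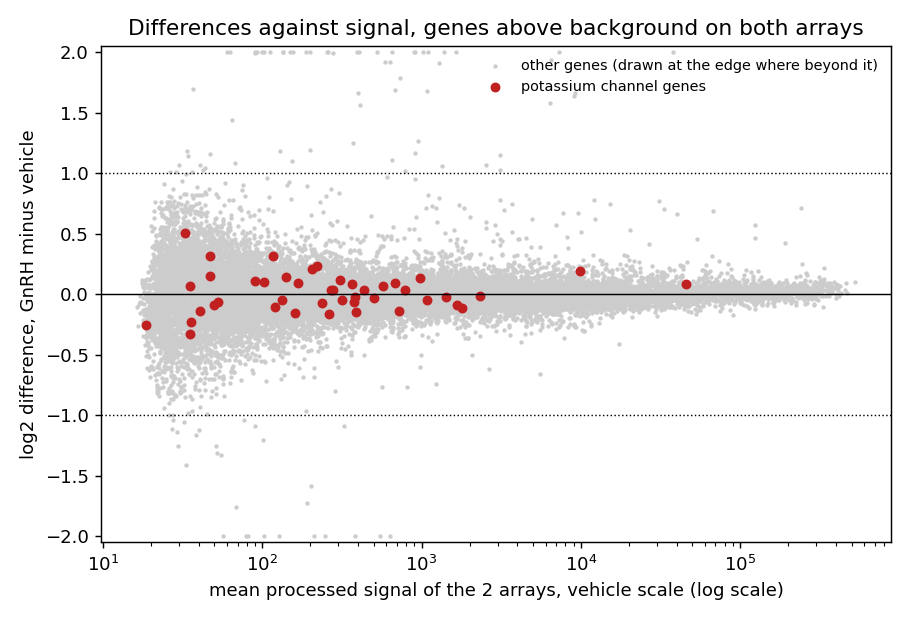
Log2 difference, GnRH minus vehicle (y axis), against the mean processed signal of both arrays (x axis, log scale) for all measured genes (grey; values beyond 2 in size drawn at the edge) and 44 of the 48 measured potassium channel genes (red). The red points narrow towards 0 as the signal rises, as the grey ones do.

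Probes of the same gene gave a second view of the error. Of the 48 members, 14 had over 1 measured probe, and in 11 of these the probes lay on both sides of 0. The probes of a gene differed by a median of 0.29 on the log2 scale, from 0.04 for Kcng2 to 0.48 for Kcnip3. The largest difference of a member between the arrays was 0.51 (Kcnj3). A range between probes holds the error of each probe, so these sizes are not directly comparable. Probes of a gene share its RNA and are not replicates of the treatment. In Kcng2, Kcnj3 and Kcnip3 all measured probes lay on 1 side of 0. They lay above it for Kcng2 (0.03 and 0.08) and Kcnj3, and below it for Kcnip3. Both Kcng2 probes were within the scanner error, as was 1 of the probes in Kcnj3 and in Kcnip3.

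**Figure D5:**
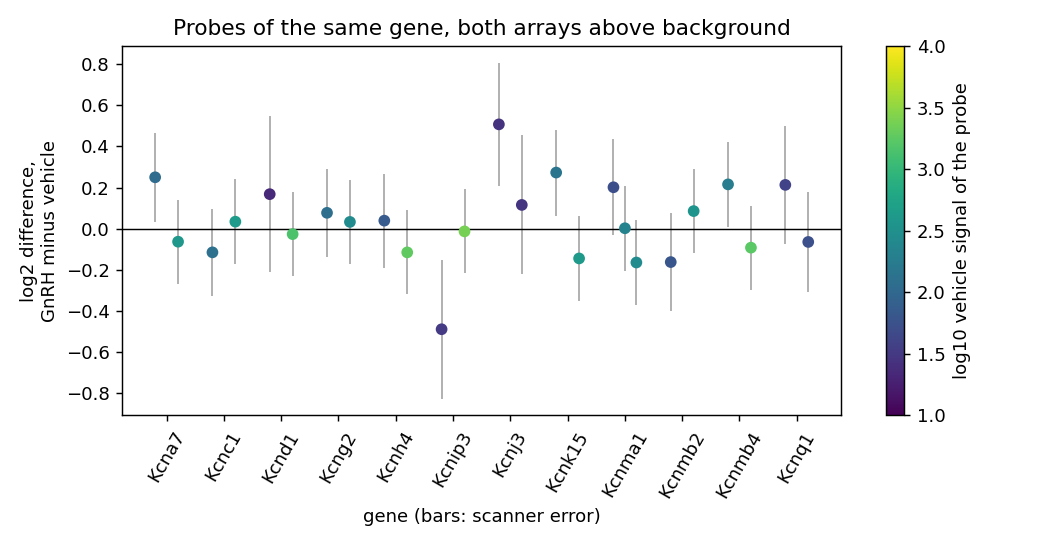
Log2 difference, GnRH minus vehicle (y axis), of each measured probe of 12 of the 14 genes with over 1 such probe (x axis); bars are the scanner error and colour is the log10 vehicle signal of the probe. In 9 of these 12 genes the points lie on both sides of the zero line.

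Several members are neighbours in the genome. Among 10 adjacent pairs whose probes lay within 150 kb of each other (mm9), 7 had 1 measured gene, 3 had neither and 0 had both. Kcna1 and Kcna2 are each in 2 of the pairs, 51.6% of all members were measured, and the share of such pairs among other genes was not computed. On chromosome 16, the probe of Kcne2 (92298236 to 92298295) was next to that of Kcne1 (92346251 to 92346310), which was on neither array. On chromosome 6, Kcna1 was on neither array and lay between Kcna5 and Kcna6, which were both measured. On chromosome 3, Kcna2 was likewise on neither array between Kcna3 and Kcna10. The adjacent inward rectifier genes Kcnj16 and Kcnj2 on chromosome 11, and Kcnj5 and Kcnj1 on chromosome 9, were all on neither array.

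Promoter windows from RefSeq (build GRCm38.p6, 250 bases before to 50 after a gene's start) were found for 68 of the 93 genes. For CG pairs, the window with the most was taken where a gene had several; for motifs, all windows of a gene were searched. Measured members had a median of 14.5 CG pairs (32 genes, from 0 to 48) and members on neither array a median of 10 (31 genes, from 1 to 49), ranges that overlapped almost fully. Over all genes with a RefSeq symbol the medians were 21 and 3. The full cAMP response element, TGACGTCA (its own reverse complement), was in 0 of the 68 members and in 2.69% of all 16374 genes with a window. The EGR site GCGTGGGCG, on either strand, was in 0 of 68 and in 1.02% of all. Windows of the immediate-early genes Fos, Fosb, Junb and Nr4a1, which were higher in the GnRH array, also held neither motif. The shares over all genes are low, and a window without the letters says nothing of a factor's binding elsewhere.

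The extremes of the member promoters are shown as the 120 bases before the start, with CG pairs in capitals, beside that of Kcne2. Kcna10 was measured (44.9 and 49.9) with 0 CG pairs in its window, and Kcng3 was on neither array (8.27 and 6.21) with 49.
Kcna10, chr3:107183023-107183142, plus strand: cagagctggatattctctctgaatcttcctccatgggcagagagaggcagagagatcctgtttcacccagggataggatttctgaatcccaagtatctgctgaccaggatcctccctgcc
Kcng3, chr17:83631896-83632015, minus strand: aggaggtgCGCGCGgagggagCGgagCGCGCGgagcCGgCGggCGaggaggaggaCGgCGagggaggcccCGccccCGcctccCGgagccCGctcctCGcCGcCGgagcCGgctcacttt
Kcne2, chr16:92292269-92292388, plus strand: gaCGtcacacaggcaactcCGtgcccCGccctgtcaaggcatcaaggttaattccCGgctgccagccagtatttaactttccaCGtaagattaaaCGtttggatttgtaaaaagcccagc

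Genes that work with the channels but are named otherwise are given beside them; the median sizes of difference were 0.05 for the Kv partners, 0.06 for the signalling genes and 0.03 for the pumps and cotransporters. None of the 12 measured of 13 Kv partner genes was past 1.5-fold, with a median of -0.01 and a lowest value of -0.22 for Amigo1, an auxiliary protein of Kv channels. Of the BK gamma subunits, Lrrc38 (-0.19) and Lrrc55 (0.10) were measured, and Lrrc26 and Lrrc52 were on neither array. The 19 measured of 20 genes of Gq, calmodulin and G-protein signalling to channels ran from -0.11 to 0.15, with a median of -0.01 and none past 1.5-fold. Potassium pumps and cotransporters had 9 of 10 genes measured, from -0.10 to 0.12, with a median of 0.01. The 40 measured calcium, sodium, HCN and TRP channel genes had a median of -0.02, with 1 at least 1.5-fold higher and 0 lower. Their median size of difference was 0.10, against 0.09 for the potassium channel genes and 0.07 for all measured genes. For the measured genes with a RefSeq symbol it was 0.06.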

How the data were processed

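Spot intensity came, as linear values, from the authors' deposited scanner output. Background subtraction and detrending were done by Feature Extraction, version 10.7.1.1 per the file headers and 9.5.1.1 per the submitters' processing notes. Probe positions are in build mm9, per the file headers. The authors' deposited value table holds intensity with the same median on both arrays; how it was normalized is not given in the sources used here, and it served as an alternative.

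Control and outlier spots were left out. Spots of a probe were averaged as log2 signals, and each array's 75th percentile (578 for vehicle, 541 for GnRH) was subtracted. Probes with the scanner's mark of well above background on at least 50% of their spots passed, and a gene was its probe of highest mean signal among those marked on both arrays. Member names are those of the files; other genes took RefSeq symbols by accession where these matched. Areas were sought with spot medians within 2 rows and columns at 0.3 or more. Steps were tested on simulated data.

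Of all spots, 55.2% (vehicle) and 56.9% (GnRH) were well above background and 0 were saturated; the number of arrays limits the precision. The members, gene lists and alternatives were chosen with earlier results of these data known. The rule for named genes took Kcnma1, the 6 highest and 6 lowest differences, any member past 1.5-fold or with a bound of 2-fold, any with a vehicle signal at or above the 75th percentile, and pore genes whose probes differed by over 0.5; the other members are named to account for them, except a few that are not reported here. Background correction with normexp used limma 3.58.1, and all else Python 3.11.15 with numpy 2.4.6 and pandas 2.3.3.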

Additional observations from a re-analysis of the deposited data

How the results depend on the processing

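Under scaling to the median, quantile normalization, normexp, no background correction, the authors' value table, the stricter filter, the mean over probes, outlier spots kept and the areas left out, 0 members were 2-fold or 1.5-fold different in either direction. Dim probes changed the counts. With no filter on them (93 genes), 5 members were 2-fold or more higher, 8 were 1.5-fold or more higher and 3 were 1.5-fold or more lower, beside 3.60%, 7.56% and 4.76% of all genes. With the looser background call (69 genes) the counts were 3, 5 and 3, beside 2.14%, 5.47% and 3.70%. The 5 were Kcnab2, Kcne3, Kcnh8, Kcnip2 and Kcnj10, with vehicle signals from 3.41 to 9.57. The looser call also put 69 members above background on both arrays, in place of 48. The median difference ran from -0.02 to 0.05. Of 269 values of 25 named genes under 11 alternatives, 3 moved by more than the scanner error (Kcnj14 to -0.04 with no background correction, Kcnip3 to -0.25 and Kcnk15 to 0.06 with the mean over probes), and 8 changed sign. No paired analysis was possible because each group has 1 array.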
